A study of Mus musculus with 21 samples.

Results

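Dusp4, Dusp5, Dusp6, Spry2, Spry4, Spred1, Spred2, Etv4, Etv5 and Phlda1 are 10 genes whose transcripts follow, and mostly dampen, signaling through the kinase ERK. They were chosen by symbol, matched to the Ensembl gene identifiers of the count tables, and are 10 of the 45706 genes counted. The study asked how SHP2 with the D61Y mutation, encoded by Ptpn11 and a cause of juvenile myelomonocytic leukemia, changes blood cells of mice, and RNA was sequenced from 3 cell fractions of 3 genotypes. LSK cells are bone marrow (BM) cells depleted of mature lineages and sorted for Sca1 and cKit, a fraction of stem and progenitor cells. CD11b+ cells are myeloid cells that were enriched with magnetic beads over 2 columns, from BM and from spleen.

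Each fraction held 2 MxCre libraries, 2 Ptpn11D61Y/+ libraries and 3 libraries of S3 mice, 21 in all. S3 denotes terminally ill MxCre;Ptpn11D61Y/+ mice. All mice received poly I:C, which turns on the Cre recombinase of the Mx promoter in the blood system and in other interferon-responsive cells. In S3 cells the Cre had removed a stop cassette, so that 1 mutant and 1 normal Ptpn11 allele were expressed. The Ptpn11D61Y/+ control mice carried the cassette but no Cre, so that 1 functional allele remained, and the MxCre control mice carried the Cre and 2 normal alleles. By the labels, S3 animals 540 and 815 gave all 3 fractions, animal 768 gave LSK cells and animal 640 gave both CD11b+ fractions. Control libraries are given by their replicate number, and the labels do not say that libraries with the same number come from the same animal.

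When SHP2 passes a signal from a growth factor receptor to RAS, the kinases RAF, MEK and ERK are activated in turn. ERK then switches on transcription factors such as ETV4 and ETV5, and it also induces its own brakes. These are phosphatases of the DUSP family that dephosphorylate ERK, and Sprouty and SPRED proteins that act upstream, at the receptor and at RAS. In blood stem cells and myeloid cells the same route carries signals for growth and survival from cytokine receptors. Transcript levels of such genes are often read as a sign of ERK output, which was not itself measured in these libraries.

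The members lie apart in the GRCm38 genome, and all 10 passed the filter on low counts that left 19555 genes for testing. The phosphatase genes are Dusp4 (ENSMUSG00000031530, chr8:34807297-34819894, plus strand), Dusp5 (ENSMUSG00000034765, chr19:53529109-53542431, plus) and Dusp6 (ENSMUSG00000019960, chr10:99263231-99267489, plus). The Sprouty genes are Spry2 (ENSMUSG00000022114, chr14:105891947-105896819, minus) and Spry4 (ENSMUSG00000024427), and the SPRED genes are Spred1 (ENSMUSG00000027351, chr2:117121374-117182279, plus) and Spred2 (ENSMUSG00000045671, chr11:19924375-20024026, plus). The ETS factor genes are Etv4 (ENSMUSG00000017724, chr11:101769742-101785371, minus) and Etv5 (ENSMUSG00000013089, chr16:22381309-22439719, minus), and Phlda1 (ENSMUSG00000020205, chr10:111506286-111508645, plus) encodes a protein with a pleckstrin homology-like domain. Exons of Dusp5 overlap the antisense gene AC137853.2, and exons of Phlda1 overlap the antisense gene Gm28592. The library kit keeps strand, but whether the counting used it is not given in the sources used here, so counts of those 2 members may hold reads of the opposite strand.

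Promoter sequence is shown for 3 members that stand for different patterns in the data: Dusp5, the phosphatase gene with the widest range of levels, and Spred2 and Etv5, which had higher levels in S3 LSK cells. The windows run from 250 bases before to 50 bases after the transcription start in RefSeq on GRCm38.p6, 5′ to 3′ on the strand of the gene. They cover chr19:53528895-53529194 for Dusp5, chr11:19924192-19924491 for Spred2 and chr16:22439521-22439820, on the minus strand, for Etv5. Capitals mark matches to the ETS core GGAAGT on either strand (read as ACTTCC on the other) and to the CArG box, the motif of serum response factor.
Dusp5: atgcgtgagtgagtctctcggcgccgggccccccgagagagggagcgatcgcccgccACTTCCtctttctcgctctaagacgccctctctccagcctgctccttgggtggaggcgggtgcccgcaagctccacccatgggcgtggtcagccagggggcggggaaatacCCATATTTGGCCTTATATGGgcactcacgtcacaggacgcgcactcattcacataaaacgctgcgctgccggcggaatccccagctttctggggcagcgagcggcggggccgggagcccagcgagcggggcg
Spred2: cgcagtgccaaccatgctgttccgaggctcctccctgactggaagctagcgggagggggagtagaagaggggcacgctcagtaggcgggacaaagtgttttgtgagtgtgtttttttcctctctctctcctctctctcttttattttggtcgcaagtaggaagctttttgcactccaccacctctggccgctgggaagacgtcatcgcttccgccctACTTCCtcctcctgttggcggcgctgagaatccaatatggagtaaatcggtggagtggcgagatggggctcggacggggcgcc
Etv5: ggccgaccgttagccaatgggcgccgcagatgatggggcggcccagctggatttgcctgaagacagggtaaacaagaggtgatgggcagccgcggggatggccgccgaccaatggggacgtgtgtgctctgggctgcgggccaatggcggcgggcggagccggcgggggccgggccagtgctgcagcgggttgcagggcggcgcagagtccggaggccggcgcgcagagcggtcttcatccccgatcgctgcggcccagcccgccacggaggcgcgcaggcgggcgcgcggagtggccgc
The Dusp5 window held 1 ETS core, at position -193 from the start, and 2 CArG boxes that follow each other directly, at -82 and -72. The Spred2 window held 1 ETS core, at -33, and the Etv5 window held none of the motifs searched. The other motifs searched, on both strands, were the AP-1 site TGANTCA and the cAMP response element TGACGTCA. Neither was found in the 6 member windows searched, which also included Dusp6, Spry2 and Spred1, where no motif was found. Of 32851 mouse promoter windows of this length, 23.8% held the ETS core, 1.63% a CArG box, 7.81% the AP-1 site and 1.79% the cAMP response element. A match describes the letters in the window and says nothing of binding.

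The libraries held between 34992610 and 104509425 counts. Levels are given in CPM, counts scaled to a common library size after adjustment by the trimmed mean of M values (TMM). Of markers of the fractions, 9 stem and progenitor genes summed to between 1347 and 2060 CPM in the LSK libraries and to between 67.4 and 539 CPM in the CD11b+ libraries, of which some had Hlf or Mecom at 0. Itgam, which encodes CD11b, was between 31.6 and 114 CPM in LSK and between 151 and 1665 CPM in CD11b+ libraries, so the labels of the fractions and these markers were on the same side in every library. In 3 libraries Xist, which female cells express, and the Y-linked genes both had 712 counts or more, while in each other library 1 of the 2 had 17 counts or fewer. BM MxCre 2 had 2834 and 1900 of them, BM S3 540 had 2780 and 958, and spleen S3 540 had 712 and 4225, whereas LSK S3 540 had 1 Xist count and 15172 Y counts. The spleen Ptpn11D61Y/+ 1 library had 4753 Xist counts and 0 Y counts, whereas LSK and BM Ptpn11D61Y/+ 1 had 17 and 1 Xist counts with 21885 and 6602 Y counts. These counts differed between libraries that share a number, the reason was not tested, and results without the 3 libraries with 712 counts or more of both are given where they differ.

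Cells of other types were unevenly spread over the groups. In LSK cells, 9 mature neutrophil markers summed to 2259 and 1923 CPM in the MxCre libraries, with S100a9 most abundant at 781 and 669 CPM, against 382 and 326 CPM in the Ptpn11D61Y/+ and 688, 1239 and 887 CPM in the S3 libraries 540, 815 and 768. Erythroid markers, also 9 genes, summed to 1544 and 843 CPM in LSK MxCre, led by Hbb-bs at 663 and 352 CPM, and to between 58.8 and 138 CPM in the other LSK libraries. Within LSK cells, 4 markers of immature granulocytes, led by Mpo, summed to 4793, 4269 and 5962 CPM in S3 540, 815 and 768, against 1608 to 2664 CPM in the 4 control libraries. The stem and progenitor sum was 1347 to 1550 CPM in S3 and 1922 to 2060 CPM in the LSK controls, and 4 dendritic cell markers summed to 46.6, 80.1 and 49.1 CPM in S3 and to between 8.92 and 21 CPM in the controls. The 5 B cell markers summed to between 35.3 and 66.1 CPM in S3 and between 69.7 and 133 CPM in the controls, and 5 markers of stroma and endothelium to between 6.59 and 8.42 CPM in S3 and between 8.80 and 41 CPM in the controls. In these 5 sums no S3 library overlapped with a control library of LSK cells. In spleen CD11b+ cells, the neutrophil sum was 60349 and 119511 CPM in MxCre, 3447 and 7353 CPM in Ptpn11D61Y/+ and 76195, 37552 and 27939 CPM in S3 540, 815 and 640. The spleen erythroid sum was 3424 and 1152 CPM in MxCre, 5162 and 1150 CPM in Ptpn11D61Y/+, and 14599, 15919 and 29074 CPM in S3. Among BM CD11b+ libraries, MxCre 1 had a monocyte and macrophage sum of 11955 CPM, led by C1qa at 6283 CPM, against 1477 to 3554 CPM in the others, and S3 640 had a neutrophil sum of 18991 CPM against 76868 to 119647 CPM and an erythroid sum of 14787 CPM against 50049 to 223609 CPM. In bulk samples, fewer cells of a type and less RNA per cell cannot be told apart, and the part of these cells in the results below was not tested.

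**Figure D1:**
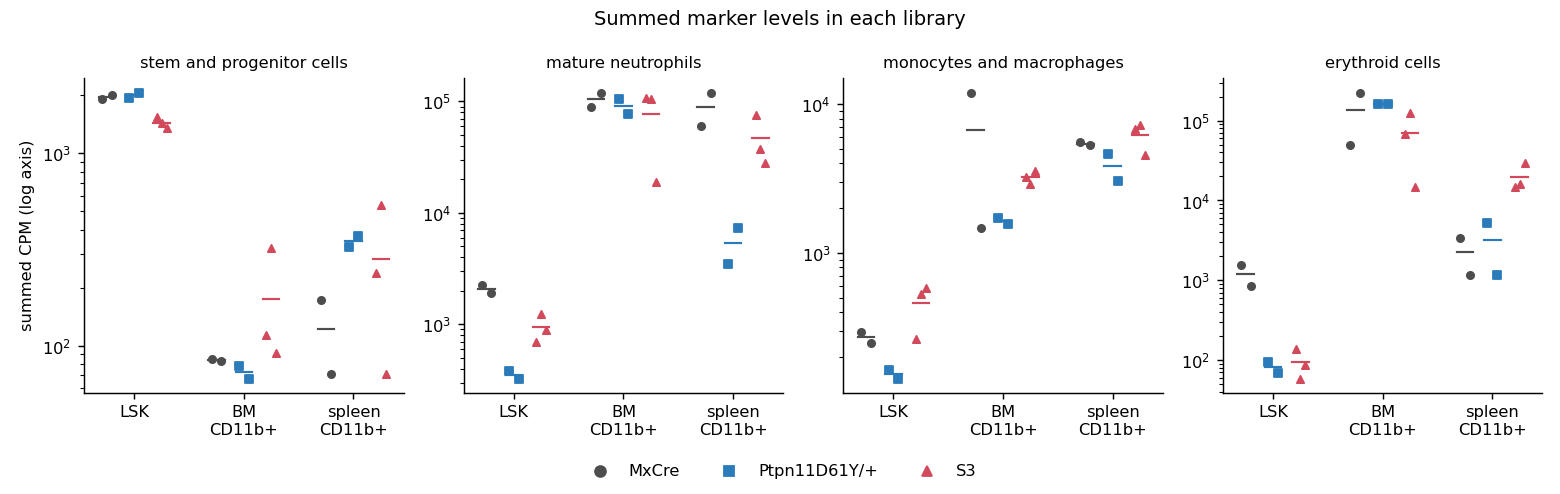
Summed CPM (log axis) of the markers of stem and progenitor cells, mature neutrophils, monocytes and macrophages, and erythroid cells. Each point is 1 library, by fraction and genotype. The LSK MxCre libraries lie above the other LSK libraries for neutrophil and erythroid markers, and the spleen Ptpn11D61Y/+ libraries lie below the other spleen libraries for neutrophil markers.

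Ptpn11 itself was followed first, since the genotypes differ in its alleles. In LSK cells it stood at 111 and 116 CPM in MxCre, 64.1 and 60.5 CPM in Ptpn11D61Y/+ and 153, 140 and 152 CPM in S3 540, 815 and 768. The 3 LSK genotypes did not overlap, with the lowest levels in the mice that keep 1 functional allele. S3 lay apart from all 4 LSK control libraries for 41.1% of all genes. In spleen CD11b+ cells it was 14.6 and 38.2 CPM in MxCre, 62.3 and 35.3 CPM in Ptpn11D61Y/+ and 91.9, 59.8 and 140 CPM in S3, so the spleen controls overlapped each other. In BM CD11b+ cells it was 22.1 and 42.8 CPM in MxCre, 46.0 and 55.0 CPM in Ptpn11D61Y/+ and 62.7, 26.3 and 119 CPM in S3, and S3 815 lay between the MxCre libraries.

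In LSK cells the ETS factor genes and Spry4 were higher in S3 than in both controls, while Dusp5, Dusp6, Spry2 and Phlda1 were highest in MxCre. Spred1, Spred2 and Spry2, given below, also separated S3 from all 4 control libraries. Such a separation was seen for 41.1% of all genes. Etv4, a PEA3 family ETS factor that ERK activates, stood at 0.246 and 0.342 CPM in MxCre (30 and 36 counts), 0.314 and 0.418 CPM in Ptpn11D61Y/+ (49 and 50 counts) and 12.2, 11.4 and 5.12 CPM in S3 540, 815 and 768 (1663, 1098 and 685 counts). The mean S3 level was 32.7-fold the MxCre and 26.2-fold the Ptpn11D61Y/+ mean, and the lowest S3 library was far above every control library. Etv5, its close relative, was 18.7 and 19.2 CPM in MxCre, 18.4 and 25.9 CPM in Ptpn11D61Y/+ and 48.2, 39.7 and 36.0 CPM in S3, a mean 2.18-fold the MxCre mean. Spry4, a Sprouty inhibitor of the pathway at chr18:38586247-38601415 on the minus strand, was 1.4 and 1.35 CPM in MxCre, 1.81 and 1.82 CPM in Ptpn11D61Y/+ and 7.55, 4.57 and 5.50 CPM in S3, a mean 4.27-fold the MxCre mean. For both genes every S3 library was above all 4 control libraries.

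The phosphatase genes had another order. Dusp5, whose product dephosphorylates ERK in the nucleus, was 70.6 and 61.9 CPM in LSK MxCre, 14.2 and 19.0 CPM in Ptpn11D61Y/+ and 12.7, 24.9 and 15 CPM in S3. Here the MxCre libraries stood alone, 3.78-fold above S3 in the mean, and S3 overlapped Ptpn11D61Y/+. Dusp6, the cytoplasmic ERK phosphatase, was 110 and 102 CPM in MxCre, 64.8 and 95.9 CPM in Ptpn11D61Y/+ and 97.5, 89.0 and 63.5 CPM in S3, with little room between MxCre and the other groups. Dusp4, a further nuclear phosphatase, was 11.8 and 10.8 CPM in MxCre, 13.2 and 16.7 CPM in Ptpn11D61Y/+ and 11.4, 12.3 and 3.98 CPM in S3, where S3 768 alone was low. Phlda1 was 2.37 and 1.37 CPM in MxCre, 0.474 and 0.577 CPM in Ptpn11D61Y/+ and 0.817, 0.583 and 0.262 CPM in S3, so it was higher in MxCre than in all other LSK libraries, as Dusp5 was. The LSK MxCre libraries are also those with the higher neutrophil and erythroid sums given above, and Dusp5 and Phlda1 also rose from LSK to CD11b+ cells in the controls and in S3. Spry2, also highest in LSK MxCre, was lower in spleen controls than in LSK controls. The part of neutrophils and erythroid cells in the LSK levels of these genes was not tested.

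The remaining members were the inhibitors Spry2, Spred1 and Spred2. Spry2 was 23.7 and 23.1 CPM in LSK MxCre, 14.5 and 19.6 CPM in Ptpn11D61Y/+ and 12.2, 13.9 and 10.5 CPM in S3, lower in every S3 library than in every control library, which is the opposite order to Spry4. Spred1, which recruits neurofibromin to RAS, was 33.3 and 36.8 CPM in MxCre, 38.9 and 34.8 CPM in Ptpn11D61Y/+ and 52.9, 42.1 and 40.6 CPM in S3. Spred2 was 30.3 and 36.2 CPM in MxCre, 29.5 and 38.6 CPM in Ptpn11D61Y/+ and 44.5, 44.8 and 46.4 CPM in S3. Both SPRED genes were higher in all S3 libraries than in the controls, with S3 means 1.29-fold (Spred1) and 1.36-fold (Spred2) the MxCre means. The immature granulocyte, stem cell, dendritic cell, B cell and stroma sums given above separated the same LSK libraries, and their part in these differences was not tested.

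**Figure D2:**
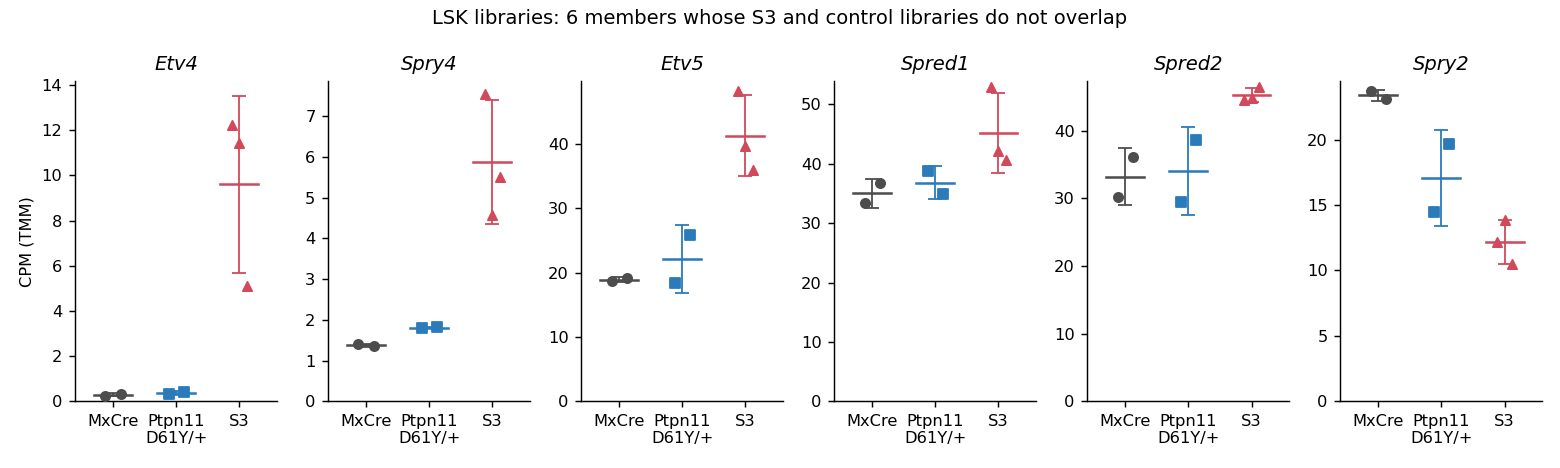
Level in the 7 LSK libraries (CPM) of the 6 members whose S3 and control libraries did not overlap, as held for 41.1% of all genes. Each point is 1 library, by genotype, with bars of 1 SD about the mean. Etv4, Etv5, Spry4, Spred1 and Spred2 are higher and Spry2 is lower in all 3 S3 libraries than in the 4 control libraries.

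With all 21 libraries in 1 fit of edgeR's quasi-likelihood test, which shares 1 estimate of the spread over the fractions, 0 of the 10 members passed a Benjamini-Hochberg adjusted p under 0.05 for LSK S3 against MxCre, where 0.0307% of all genes did. At an unadjusted p under 0.05 there were 5 members and 777 of 19555 genes, and DESeq2 called 1 member, Etv4, and 128 genes. The log2 fold change of Etv4 was 5.02 ± 1.60 (SE, n = 3 against 2, edgeR adjusted p = 0.82). When the 5 libraries of the 2 LSK groups were fitted alone with the same test, 7 members were called, and 23.3% of all genes. Etv4 (5.03 ± 0.53, edgeR adjusted p = 0.00628), Spry4 (2.09 ± 0.26, 0.00569), Etv5 (1.12 ± 0.14, 0.00559) and Spred2 (0.44 ± 0.09, 0.0175) were higher in S3 in that fit. Dusp5 (-1.92 ± 0.32, 0.0210), Spry2 (-0.94 ± 0.14, 0.00762) and Phlda1 (-1.76 ± 0.50, 0.0486) were lower. The estimates hardly differed between the fits, while the standard errors were smaller with the LSK groups alone. The members' median log2 fold change was 0.04, and that of all genes 0.01.

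Against the Ptpn11D61Y/+ libraries, edgeR called Etv4, Spry4 and Etv5 in LSK cells, and only when the 2 groups were fitted alone. The shared fit of edgeR called 0 of 10 members and 0.0972% of all genes, with 1 member and 1123 genes at an unadjusted p under 0.05, and DESeq2 called 1 member, Etv4, and 248 genes. The fit of these 2 groups alone called 3 members and 26.6% of all genes: Etv4 (4.65 ± 0.50, edgeR adjusted p = 0.00634), Spry4 (1.63 ± 0.25, 0.00838) and Etv5 (0.83 ± 0.19, 0.0265). That share of the 10 members was near the share of all genes. Spry2 was lower in S3 in that fit and was not called (-0.55 ± 0.18, edgeR adjusted p = 0.0638). For Dusp5 the difference in that fit was 0.01 ± 0.35 (edgeR adjusted p = 0.98) and for Phlda1 0.00 ± 0.47. Between the 2 controls, the shared fit called 0 of 10 members for LSK Ptpn11D61Y/+ against MxCre and 0.0614% of all genes, with 2 members and 330 genes at an unadjusted p under 0.05, and DESeq2 called 0 members and 103 genes. The fit of the 2 control groups alone called 2 members and 13.4% of all genes, Dusp5 (-1.98 ± 0.16, edgeR adjusted p = 0.00214) and Phlda1 (-1.82 ± 0.31, 0.00600). Any 2 of these 3 comparisons share the libraries of 1 genotype, so their estimates are not independent of each other.

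The S3 and MxCre libraries of LSK cells did not overlap for 9 members, and the same held for 57.9% of all genes. Against all 4 control libraries 6 members did not overlap, 5 of them higher in S3 (Spry4, Spred1, Spred2, Etv4 and Etv5) and 1 lower (Spry2), and 41.1% of all genes did not overlap. Read against these shares, a lack of overlap was common among all genes in LSK cells.

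In spleen CD11b+ cells, Etv5 rose and Spry2 and Phlda1 fell in S3 against MxCre. Etv5 was 14.2 and 10.6 CPM in MxCre, 56.7 and 16 CPM in Ptpn11D61Y/+ and 85.5, 63.4 and 105 CPM in S3 540, 815 and 640. All S3 libraries exceeded all controls, and the mean was 6.80-fold the MxCre mean (log2 fold change 2.77 ± 0.61 SE, edgeR adjusted p = 0.0219). Spry2 was 9.12 and 13.3 CPM in MxCre, 5.29 and 15.4 CPM in Ptpn11D61Y/+ and 4.57, 3.19 and 3.29 CPM in S3, again without overlap with any control (-1.61 ± 0.42, edgeR adjusted p = 0.0417). Phlda1 was 114 and 79.3 CPM in MxCre, 2.76 and 6.84 CPM in Ptpn11D61Y/+ and 9.25, 6.84 and 9.01 CPM in S3 (-3.53 ± 0.64, edgeR adjusted p = 0.00923). It was the MxCre libraries that stood apart, 11.6-fold above S3 in the mean, while S3 and Ptpn11D61Y/+ overlapped.

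These 3 calls compare with 4.19% of all genes called in spleen S3 against MxCre, and the median log2 fold change was 0.24 over the members and 0.32 over all genes. With both control genotypes together as the control, edgeR called 0 members and 0 of all genes, and with the 2 spleen groups fitted alone, or without MxCre 1, MxCre 2 or S3 540, 1 remained, Phlda1. These last 4 fits called 14, 388, 716 and 266 genes, against 819 in the fit of all 21 libraries. Over 12 alternatives the Spry2 call was lost under 9 (edgeR adjusted p up to 0.28), the Etv5 call under 5 and the Phlda1 call under 1. Spleen erythroid sums were higher in every S3 than in every MxCre library, as given above, and 2 of the 9 erythroid markers were called higher. The neutrophil sums overlapped, but all 9 neutrophil markers had a negative log2 fold change, with a median of -0.90 against 0.32 for all genes, and 1 was called lower. The sum of 5 NK cell markers was 5.78, 17.5 and 3.79 CPM in S3 540, 815 and 640 and 36.7 and 20.8 CPM in MxCre, without overlap and with 0 markers called by edgeR. The sum of 5 B cell markers was 881, 794 and 79.9 CPM in S3 540, 815 and 640 and 214 and 94.5 CPM in MxCre, so it overlapped too, and the part of these cells was not tested.

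The members that were not called included large differences. Dusp5 was 735 and 593 CPM in spleen MxCre, 71.0 and 230 CPM in Ptpn11D61Y/+ and 82.7, 242 and 30.3 CPM in S3. The MxCre libraries lay above all others, and the log2 fold change for S3 was -2.49 ± 0.74 (edgeR adjusted p = 0.0658). Dusp6 was 410 and 329 CPM in MxCre, 43.2 and 107 CPM in Ptpn11D61Y/+ and 144, 215 and 176 CPM in S3, which placed S3 between the 2 controls. Spred1 was 14.7 and 8.50 CPM in MxCre, 35.8 and 16 CPM in Ptpn11D61Y/+ and 32.1, 25.5 and 35.1 CPM in S3 (1.42 ± 0.55, edgeR adjusted p = 0.132). Etv4 stayed low in the spleen, with 0 and 0.196 CPM in MxCre (0 and 9 counts), 0.114 and 0.132 CPM in Ptpn11D61Y/+ (7 and 8 counts) and 0.545, 1.12 and 0.577 CPM in S3 (36, 56 and 49 counts). All 3 S3 libraries were above the controls for Etv4 and below the S3 libraries of LSK cells.

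The other spleen levels overlapped between S3 and MxCre. Dusp4 was 2.31 and 3.47 CPM in MxCre, 8.60 and 18 CPM in Ptpn11D61Y/+ and 5.51, 1.99 and 2.43 CPM in S3, and was highest in the Ptpn11D61Y/+ libraries. Spry4 was 2.08 and 1.33 CPM in MxCre, 1.4 and 0.855 CPM in Ptpn11D61Y/+ and 1.83, 2.85 and 1.57 CPM in S3. The spleen log2 fold change of Spry4 for S3 against MxCre was 0.29 ± 0.77, and its difference from the LSK change was -1.81 ± 1.09 (edgeR adjusted p = 0.47). Spred2 was 13.0 and 6.26 CPM in MxCre, 10.6 and 5.95 CPM in Ptpn11D61Y/+ and 13.0, 14.4 and 29.1 CPM in S3, with S3 640 highest. The S3 and MxCre libraries of the spleen did not overlap for 7 members, against 33.1% of all genes, with Spred1, Etv4 and Etv5 higher and Dusp5, Dusp6, Spry2 and Phlda1 lower in S3. Against all 4 controls 3 members did not overlap, Etv4 and Etv5 higher and Spry2 lower, against 5.67% of all genes.

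The spleen controls differed from each other for Dusp6 and Phlda1, both lower in Ptpn11D61Y/+ than in MxCre. Their log2 fold changes were -2.29 ± 0.57 (n = 2 against 2, edgeR adjusted p = 0.0334) and -4.33 ± 0.78 (edgeR adjusted p = 0.0118). These 2 calls stand beside 5.11% of all genes, and the members' median of -0.17 beside 0.20 for all genes. Without the spleen Ptpn11D61Y/+ 1 library, whose Xist counts are at odds with its number, edgeR called 0 members and 0 of all genes in this comparison. Without MxCre 1 or MxCre 2 it called 1 member, Phlda1, beside 647 and 608 genes. Fitted alone, the same 2 groups gave 3 member calls, adding Dusp4, beside 1076 of 19058 genes. With the replicate number as a block in that fit there were 5, adding Dusp5 and Etv5, beside 2397 genes, but the labels do not say that the numbers pair these libraries. Against Ptpn11D61Y/+, the edgeR test called 0 of 10 members in S3 spleen cells and 0.00511% of all genes, with 5 members and 1736 genes at an unadjusted p under 0.05, and DESeq2 called 1 member, Spry2, and 385 genes. The Ptpn11D61Y/+ spleen libraries had the lowest neutrophil sums of the spleen. They also had the highest B cell sums, 1394 and 2000 CPM, led by Cd79a at 443 and 762 CPM, and 2 of the 5 B cell markers were called higher than in MxCre. The median log2 fold change was 3.50 over the B cell, 2.85 over the T cell and 2.56 over the NK cell markers, with 0 of 5 called by edgeR in each of the last 2 lists. The part of these cells in the control differences was not tested.

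In BM CD11b+ cells the edgeR fit of all 21 libraries called no member between genotypes, and 2 single libraries stood apart. Dusp5 was 582 and 102 CPM in MxCre, 86.4 and 83.6 CPM in Ptpn11D61Y/+ and 47.2, 110 and 53.2 CPM in S3 540, 815 and 640. The library MxCre 1, which has the high macrophage sum, was also the highest for Dusp6 (515 CPM, against 221 CPM in MxCre 2, 240 and 247 CPM in Ptpn11D61Y/+ and 194, 467 and 128 CPM in S3) and for Phlda1 (75.1 CPM, against 18.3 CPM in MxCre 2, 15.8 and 12 CPM in Ptpn11D61Y/+ and 13.7, 21.1 and 5.12 CPM in S3). Etv5 was 28.5 and 6.52 CPM in MxCre, 4.72 and 4.98 CPM in Ptpn11D61Y/+ and 15.4, 27.4 and 37.6 CPM in S3. Every S3 library was above the Ptpn11D61Y/+ libraries for Etv5, and MxCre 1 lay inside the S3 range.

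The other library that stood apart was S3 640, with the lowest neutrophil and erythroid sums of the BM libraries. Dusp4 was 22 CPM there, against 1.56 and 1.25 CPM in S3 540 and 815, 1.19 and 1.01 CPM in MxCre and 5.42 and 9.22 CPM in Ptpn11D61Y/+. Etv4 was 4.75 CPM in S3 640 (411 counts) and 0.702 and 0 CPM in S3 540 and 815 (31 and 0 counts), 0.114 and 0.0916 CPM in Ptpn11D61Y/+, and at 0 counts in both MxCre libraries, where 3 counts would be 0.112 and 0.0795 CPM. The same library was highest in the BM for Spry4 (4.98 CPM, against 0.342 to 1.24 CPM in the others), Spred1 (32.4 against 3.68 to 12.5 CPM) and Spred2 (34.4 against 3.69 to 12.4 CPM). Spry2 was 8.92 and 14.8 CPM in MxCre, 19.0 and 20.6 CPM in Ptpn11D61Y/+ and 10.3, 12.6 and 18.3 CPM in S3, with the Ptpn11D61Y/+ libraries on top.

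For BM S3 against MxCre, edgeR called 0 of 10 members and 0% of all genes, with 6 members and 3022 genes at an unadjusted p under 0.05, and DESeq2 called 2 members, Dusp5 and Etv4, and 965 genes. Against Ptpn11D61Y/+ edgeR called 0 of 10 members and 0% of all genes, with 4 members and 1608 genes at an unadjusted p under 0.05, and DESeq2 called 1 member, Etv5, and 256 genes. Between the 2 BM controls edgeR called 0 of 10 members and 0% of all genes, with 4 members and 4419 genes at an unadjusted p under 0.05, and DESeq2 called 1 member, Etv5, and 1864 genes. Without the BM library MxCre 2, the MxCre group was MxCre 1 alone, the library with the high macrophage sum. EdgeR then called Dusp5 and Phlda1 for S3 against MxCre, and Dusp5, Etv5 and Phlda1 between the controls. For these genes MxCre 1 was above MxCre 2. The fit without the 3 libraries with 712 or more of both Xist and Y counts also left MxCre 1 alone. It called Spred2 for S3 against MxCre and Etv5 between the controls. Spred2 was 3.69 CPM in MxCre 1 and 9.46 CPM in MxCre 2. All these calls rest on 1 MxCre library, and the genes called in such fits are given under the dependence on processing. The S3 and MxCre libraries of the BM did not overlap for 2 members, Dusp4 and Spred2, both higher in S3, against 11.2% of all genes. Against all 4 controls this held for 1 member, Spred2, against 3.49% of all genes.

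**Figure D3:**
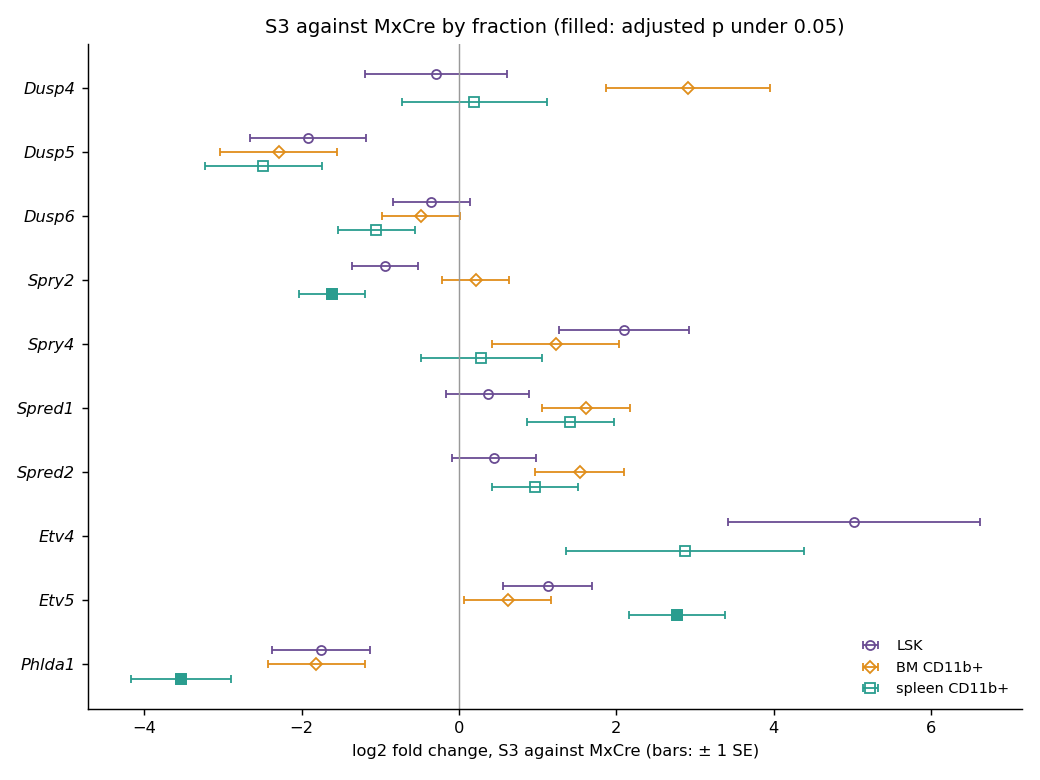
Log2 fold change of S3 against MxCre for each member in LSK, BM CD11b+ and spleen CD11b+ cells from the fit of all 21 libraries, with bars of 1 SE and filled symbols for calls. Etv5, Spry2 and Phlda1 in the spleen are the calls, and the BM value of Etv4 is left out because both MxCre libraries are at 0 counts.

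The fractions were then compared for the change from MxCre to S3 itself. The test of the difference between the spleen and the LSK change called 0 of 10 members and 0.00511% of all genes, with 1 member and 2614 genes at an unadjusted p under 0.05, and DESeq2 called 0 members and 827 genes. For Etv4 this difference was -2.15 ± 1.94 (edgeR adjusted p = 0.63) and for Etv5 1.64 ± 0.77 (edgeR adjusted p = 0.37). The same test for BM against LSK called 0 of 10 members and 0% of all genes, with 1 member and 1587 genes at an unadjusted p under 0.05, and DESeq2 called 0 members and 141 genes. A change called in spleen and not in LSK cells is therefore not shown to differ between these fractions. The spleen and BM changes were not tested against each other.

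The levels in the fractions were compared next, first in controls. In the controls, with MxCre and Ptpn11D61Y/+ weighted equally, BM CD11b+ cells had higher Dusp5, Dusp6 and Phlda1 and lower Dusp4, Spred1, Spred2, Etv4 and Etv5 than LSK cells. These 8 calls stand beside 48.8% of all genes, and the members' median log2 fold change of -1.12 beside -0.19. Phlda1 rose most, by 4.68 ± 0.56 on the log2 scale (n = 4 against 4, edgeR adjusted p = 1.48e-05), from 0.474 to 2.37 CPM in LSK controls to 12 to 75.1 CPM in BM controls. Dusp5 rose by 2.36 ± 0.60 (edgeR adjusted p = 0.00515) and Dusp6 by 1.70 ± 0.40 (edgeR adjusted p = 0.00283). Spred1 fell by 2.74 ± 0.44 (edgeR adjusted p = 0.000169), from 33.3 to 38.9 CPM down to 3.68 to 7.46 CPM, and Spred2 fell by 2.15 ± 0.43 (edgeR adjusted p = 0.000975). Dusp4 (-2.19 ± 0.74, edgeR adjusted p = 0.0232) and Etv5 (-1.15 ± 0.43, 0.0354) were lower by smaller margins relative to their errors, and for Etv5 the libraries overlapped because BM MxCre 1 was high. Etv4 was called too, but its fitted value rests on BM MxCre libraries at 0 counts and depends on the prior count. Over 18 alternatives the calls of Etv5 and Etv4 were each lost under 9, and that of Dusp4 was lost under 5 of 17. The Etv5 log2 fold change ran from -2.19 to -0.11 over its alternatives. Without BM MxCre 2, BM Ptpn11D61Y/+ 1 or LSK Ptpn11D61Y/+ 2, 5 calls remained, Dusp5, Dusp6, Phlda1, Spred1 and Spred2, beside 9350, 6923 and 7478 genes, against 9544 with all libraries. Markers of other cells moved with these fractions: edgeR called 9 of 9 erythroid markers (median log2 fold change 7.16), 5 of 5 B cell and 5 of 5 T cell markers higher in BM CD11b+ controls than in LSK controls, as well as 9 of 9 neutrophil and 9 of 9 monocyte and macrophage markers. Against LSK controls, spleen controls had 4 of 9 erythroid, 5 of 5 B cell and 3 of 5 T cell markers called higher. The part of these cells in the differences between fractions was not tested.

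Spleen control cells had higher Dusp5 and Phlda1 and lower Spry2, Spred1 and Spred2 than LSK controls. Against LSK controls, 5 members were called and 52.5% of all genes: Phlda1 (4.44 ± 0.56, edgeR adjusted p = 1.94e-05) and Dusp5 (3.25 ± 0.63, 0.00067) higher, and Spred2 (-1.91 ± 0.43, 0.00183), Spry2 (-0.89 ± 0.33, 0.0326) and Spred1 (-1.05 ± 0.41, 0.0415) lower. The libraries did not overlap for Phlda1, Dusp5 and Spred2, while Spry2 and Spred1 overlapped and were no longer called without LSK MxCre 1, MxCre 2 or Ptpn11D61Y/+ 2, where 8338, 8451 and 8370 genes were called, against 10267 with all libraries. Against BM controls, spleen control cells differed in 1 member, beside 9.97% of all genes. Spred1 rose by 1.68 ± 0.42 (edgeR adjusted p = 0.0201), and every spleen control library was above every BM control library. That call was lost without spleen MxCre 1, BM MxCre 2, either BM Ptpn11D61Y/+ library or spleen Ptpn11D61Y/+ 1, and without BM MxCre 1 or spleen Ptpn11D61Y/+ 2 Etv5 was called as well. Over these fits the genes called ranged from 681 to 3236, against 1949 with all libraries.

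The same fractions were compared within S3 mice, where 7 of 9 erythroid and 5 of 5 B cell markers were called higher in either CD11b+ fraction than in LSK cells. In BM CD11b+ against LSK cells of S3 mice 4 members were called, beside 27.1% of all genes: Phlda1 (4.58 ± 0.65, edgeR adjusted p = 0.000201), Dusp5 (2.0 ± 0.69, 0.0422) and Dusp6 (1.66 ± 0.46, 0.0151) rose and Spred1 (-1.41 ± 0.48, 0.0396) fell. Without BM S3 640, 8 members and 7164 genes were called, and without any other S3 library of these fractions 1 or 2 members (Phlda1 and at most Dusp6) and between 2932 and 3794 genes, against 5301 with all libraries. With the animal as a block Spred2 was called as well, beside 5702 genes. Over 14 alternatives the calls of Dusp5 and Spred1 were each lost under 7, and that of Dusp6 under 4. Scaling by library size alone left 1 member called higher and 2 lower, beside 1507 and 4236 of all genes. With only these groups in the fit, fewer members were called, as given under the dependence on processing. In spleen CD11b+ against LSK cells 4 were called, beside 27.4% of all genes: Phlda1 (3.91 ± 0.63, edgeR adjusted p = 0.000463) and Dusp5 (2.75 ± 0.71, 0.0102) rose, and Spry2 (-1.73 ± 0.39, 0.00469) and Etv4 (-3.68 ± 1.25, 0.0409) fell. Without LSK S3 540 or spleen S3 815, the calls were Spry2 and Phlda1, beside 3005 and 3591 genes, against 5349 with all libraries. With the animal as a block, Dusp4 and Spred2 were called as well, beside 5576 genes. Over 13 alternatives the Etv4 call was lost under 7 and the Dusp5 call under 2. With only these groups in the fit, more members were called, as given under the dependence on processing. Etv4 stood between 5.12 and 12.2 CPM in S3 LSK cells and between 0.545 and 1.12 CPM in S3 spleen cells, without overlap. Between spleen and BM CD11b+ cells of S3 mice edgeR called 0 of 10 members and 0.0563% of all genes, with 2 members and 1910 genes at an unadjusted p under 0.05, and DESeq2 called 1 member, Spry2, and 551 genes. Spry2 was lower in all 3 S3 spleen libraries than in the S3 BM libraries (-1.90 ± 0.39, edgeR adjusted p = 0.0934), and without BM S3 640 edgeR called Spry2 and Spred1, beside 460 genes.

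**Figure D4:**
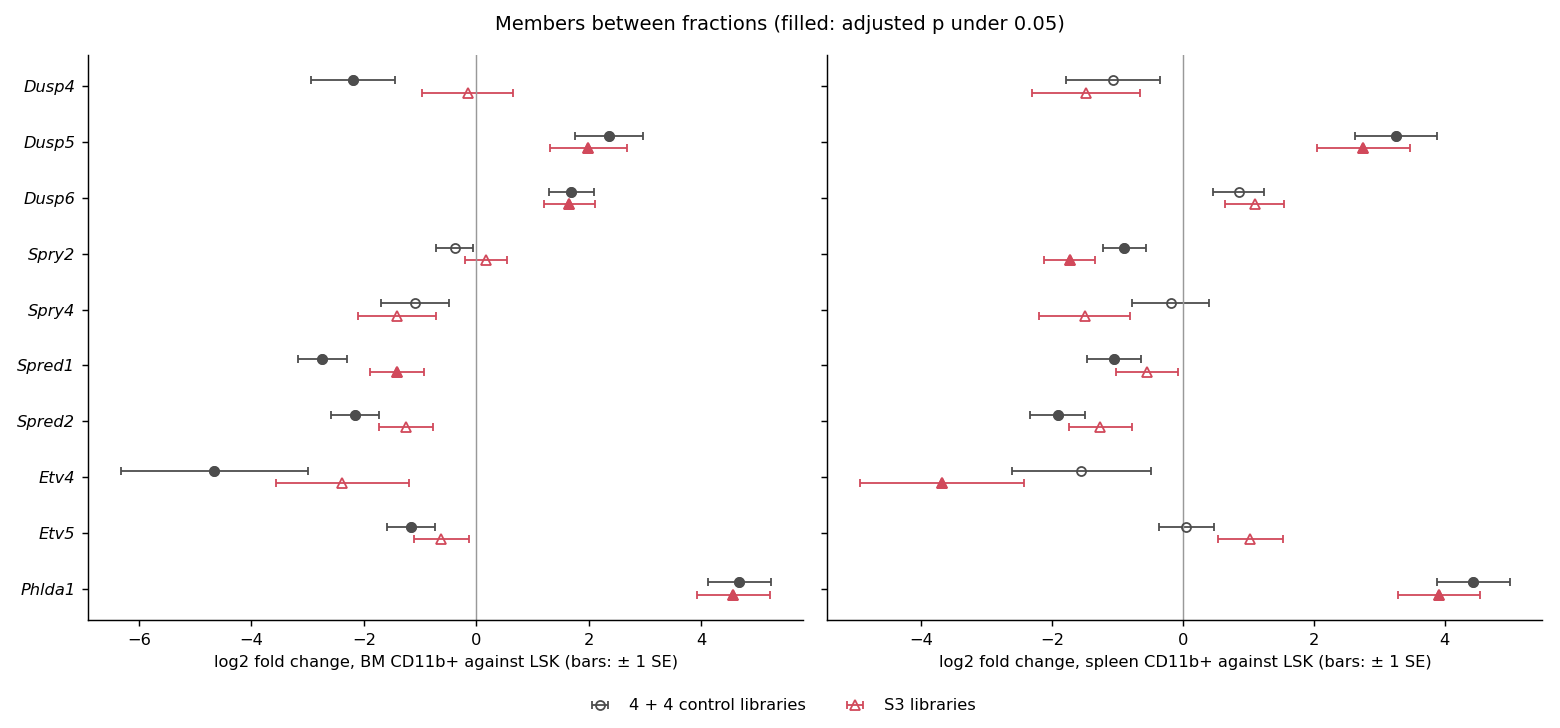
Log2 fold change of each member in BM CD11b+ (left) and spleen CD11b+ (right) against LSK cells, for the 4 control libraries a fraction and for the S3 libraries, with bars of 1 SE and filled symbols for calls. Phlda1 and Dusp5 lie to the right and Spred1 and Spred2 to the left of 0 in both panels.

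The order of the 9 combinations of fraction and genotype was read for each member from the mean CPM ± SD. Dusp5 was highest in spleen MxCre (664 ± 101, n = 2) and lowest in LSK Ptpn11D61Y/+ (16.6 ± 3.4, n = 2), with all CD11b+ groups above all LSK groups in the mean. Phlda1 had the same ends, from 96.9 ± 25 CPM in spleen MxCre to 0.526 ± 0.073 CPM in LSK Ptpn11D61Y/+. The next group down from spleen MxCre was BM MxCre for both genes, and its range did not overlap with that of spleen MxCre. Dusp6 ran from 369 ± 58 CPM in spleen MxCre to 75.3 ± 45 CPM in spleen Ptpn11D61Y/+, and its top 4 groups overlapped from each to the next.

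Another set of members peaked in LSK cells of S3 mice. Spry4 (5.88 ± 1.5 CPM, n = 3), Spred1 (45.2 ± 6.7), Spred2 (45.2 ± 1.0) and Etv4 (9.60 ± 3.9) had their highest mean there, and for Spred1, Spred2 and Etv4 the range did not overlap with that of the next group. Etv5 was highest in S3 spleen cells (84.5 ± 21 CPM) without overlap with the next group, LSK S3 (41.3 ± 6.3 CPM), and lowest in BM Ptpn11D61Y/+ (4.85 ± 0.19 CPM). Spry2 had its highest mean in LSK MxCre (23.4 ± 0.43 CPM) and its lowest in S3 spleen cells (3.68 ± 0.77 CPM), and both ends stood clear of their neighbours. Dusp4 was spread without such breaks, from 15 ± 2.4 CPM in LSK Ptpn11D61Y/+ to 2.89 ± 0.82 CPM in spleen MxCre, with BM MxCre (1.10 ± 0.13 CPM) alone below the rest. For 7 of the 8 steps in its order the neighbours overlapped.

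**Figure D5:**
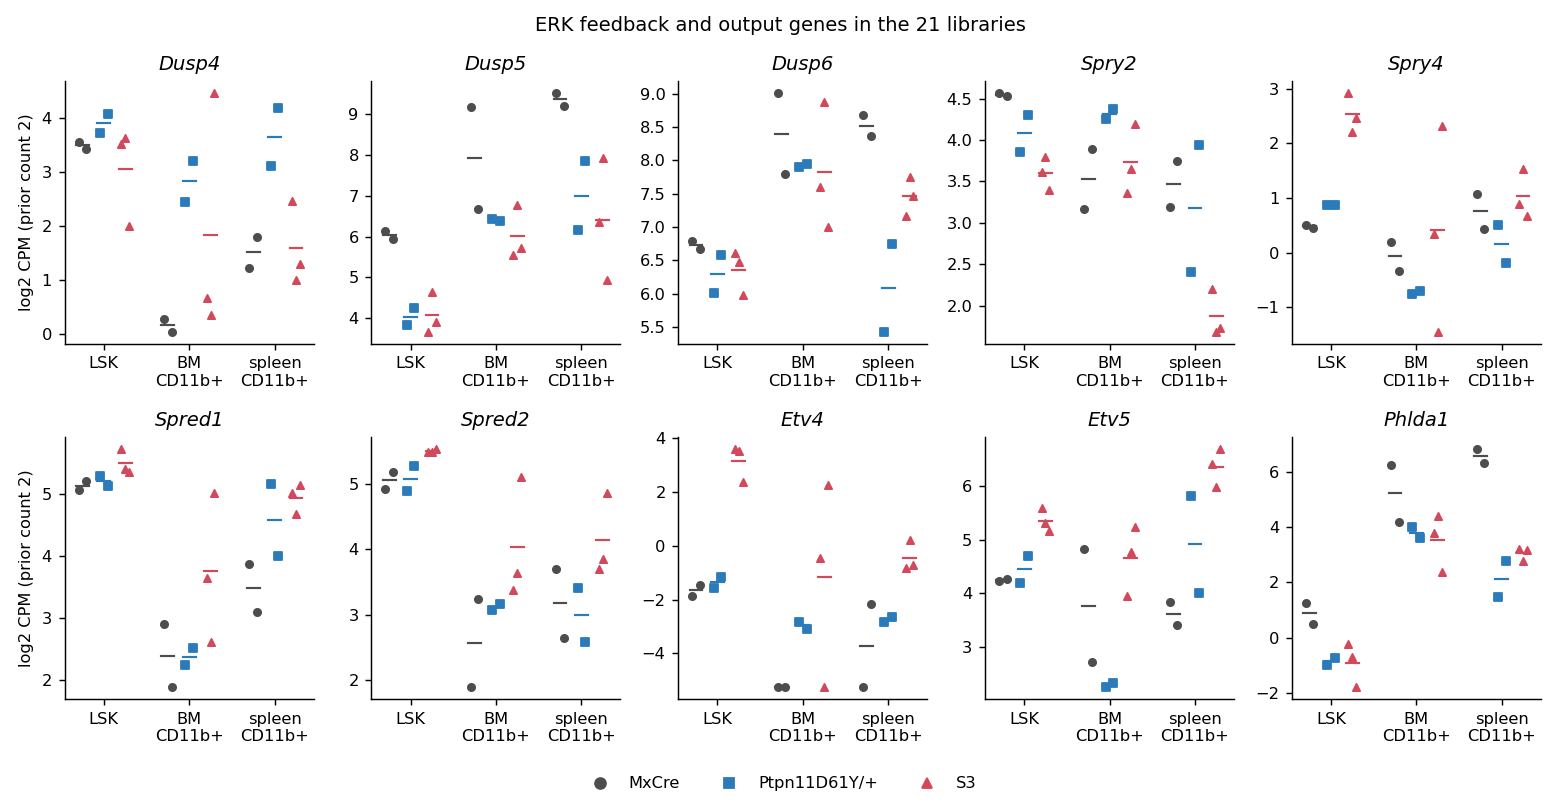
Level of each member in all 21 libraries (log2 CPM, prior count 2), 1 point per library, by fraction and genotype. Dusp5 and Phlda1 are high in CD11b+ fractions, and Spred1 and Spred2 are high in LSK cells with the S3 libraries on top of the LSK groups.

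Set per kilobase of exon, which allows genes to be compared, Dusp6 was the most abundant member in S3 LSK cells at 26.6 CPM per kb, ahead of Etv5 at 10.1, Spred2 at 9.80, Dusp5 at 7.09 and Spred1 at 6.66 CPM per kb. Etv4 reached 3.09 CPM per kb in S3 LSK cells, from 0.0947 in MxCre, and thereby passed Spry4, at 1.24, and Phlda1, at 0.251 CPM per kb. In LSK MxCre cells Dusp6 (33.9) and Dusp5 (26.8 CPM per kb) led, followed by Spry2 (11.2).

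The wider pathway was read from lists of related genes. Of 9 other phosphatase genes, 4 other feedback inhibitors, 7 other ERK output genes, the other PEA3 gene Etv1, 2 further Sprouty and SPRED genes and 24 genes of the core route from SHP2 to the ribosomal S6 kinases, none passed the shared fit of edgeR between genotypes in LSK or BM cells. Of all genes, that fit called 0.0307% for LSK S3 against MxCre, 0.0972% for LSK S3 against Ptpn11D61Y/+ and 0.0614% between the LSK controls. In each BM comparison it called 0%, so the lack of calls in these lists was near the share of all genes. In the fit of LSK S3 and MxCre alone, 23.3% of all genes were called, and the calls of these lists stand beside that share. Ccnd1, the cyclin D1 gene and a known output of ERK, was higher in S3 (1.63 ± 0.12, edgeR adjusted p = 0.00308). Its level was 26.9 and 27.5 CPM in MxCre, 36.8 and 39.0 CPM in Ptpn11D61Y/+ and 93.2, 84.9 and 74.2 CPM in S3. The 3 groups did not overlap, and S3 lay apart from all 4 LSK control libraries for 41.1% of all genes. Plaur, the other ERK output gene called, was lower (-0.95 ± 0.19, 0.0172), so the list had 1 call in each direction. The phosphatases had 2 higher (Dusp3 and Dusp7) and 1 lower (Dusp2), and the feedback inhibitors 1 higher (Il17rd, at 24 counts or fewer in every LSK library) and 1 lower (Ier3). Of the further Sprouty and SPRED genes, Spred3 was lower. Ier3, an immediate early gene, was 82.8 and 76.0 CPM in MxCre, 52.2 and 55.7 CPM in Ptpn11D61Y/+ and 21.6, 20.4 and 13.5 CPM in S3. The fit of LSK S3 and Ptpn11D61Y/+ alone called 26.6% of all genes. Outside the core, it called Ccnd1 and Dusp7 higher in S3, and Dusp2, Dusp14, Spred3 and Ier3 lower. Plaur (0.52 ± 0.22, edgeR adjusted p = 0.131), Dusp3 and Il17rd were not called there.

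Of the 24 core genes, 7 were higher and 1 was lower in LSK S3 cells when the 2 groups were fitted alone, where 23.3% of all genes were called. The higher genes included Ptpn11, Hras, Nras, the MEK gene Map2k1 and Rps6ka2, with log2 fold changes of 0.66 or less. Gab1, an adaptor that binds SHP2, was lower by a wider margin (-1.21 ± 0.17, edgeR adjusted p = 0.00682). The list's median log2 fold change was 0.05 and that of all genes 0.01. In the fit of LSK S3 and Ptpn11D61Y/+ alone, 8 of the 24 were higher and 1 was lower, beside 26.6% of all genes.

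In the spleen, the shared fit of edgeR called 6 genes of these lists for S3 against MxCre, where 4.19% of all genes were called. Ccnd1 rose by 2.28 ± 0.54 on the log2 scale (edgeR adjusted p = 0.0278), from 29.8 and 15.5 CPM in MxCre to 190, 91.1 and 48.8 CPM in S3, with 236 and 133 CPM in Ptpn11D61Y/+. The phosphatase gene Dusp9 was at 0 counts in both MxCre libraries and between 0.624 and 1.30 CPM in S3, and was called. Plaur, the urokinase receptor gene, fell by 2.89 ± 0.53, Epha2 fell by 3.96 ± 0.81, and in the core the scaffold gene Ksr1 fell by 1.57 ± 0.31. Between the spleen controls, Dusp9 and Ccnd1 (3.03 ± 0.58) were higher and Plaur was lower in Ptpn11D61Y/+ than in MxCre, and the core list had 0 genes called higher and 3 of 24 called lower, Mapk3 among them, where 5.11% of all genes were called in either direction and 3.02% lower. Thus Dusp9, Ccnd1 and Plaur were called in MxCre against both other genotypes, but without the spleen library Ptpn11D61Y/+ 1 none of the calls between the spleen controls was made.

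Between fractions, the wider lists moved in both directions. In S3 spleen against S3 LSK cells 5 of 9 phosphatase genes rose (Dusp8 most, by 5.70 ± 1.05), and Plaur (4.57 ± 0.54) and Errfi1 (2.66 ± 0.68), a feedback inhibitor of the EGF receptor, rose too. Myc fell by 2.80 ± 0.47 and Spry1 fell by 2.46 ± 0.64. Of the 24 core genes, 4 were called higher, Mapk3 among them (2.11 ± 0.42), and 0 lower, where 15.8% of all genes were called higher and 11.6% lower. That balance of all genes depends on the scaling: 57.8% of all calls were higher, and 29.3% with scaling by library size alone. In S3 BM against S3 LSK cells Dusp8, Dusp10, Plaur and Mapk3 rose as well, while Ccnd1 fell by 2.44 ± 0.46, Spred3 fell by 2.70 ± 0.65 and Myc fell by 3.67 ± 0.49. Ccnd1 was the 1 gene of these lists called between the CD11b+ fractions of S3 mice, higher in spleen by 2.82 ± 0.47 (edgeR adjusted p = 0.0443). In that comparison 11 genes were called in all, 0 without spleen S3 540 or spleen S3 815, and 460 without BM S3 640.

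Across the 21 libraries the members formed no single pattern. As a description over libraries that share fractions and genotypes, the highest Pearson correlations of log2 CPM between members were 0.873 for Dusp6 with Phlda1, 0.867 for Dusp5 with Phlda1, 0.835 for Spry4 with Etv4 and 0.776 for Spred1 with Spred2. The lowest was -0.808, for Spred2 with Phlda1. Of all genes tested, those most like Dusp5 included Ier5 (0.951) and Peli1 (0.943), and those most like Phlda1 were Trib1 (0.978), H2-Q10 (0.973) and Tmcc1 (0.971). Dusp6 was most like Retreg2 (0.939), Spred1 like Rxylt1 (0.956), Spred2 like Uhrf1bp1 (0.936), Etv5 like Klhl5 (0.888), Etv4 like Bop1 (0.871) and Dusp4 like Pawr (0.912). For Spry4 the most alike gene was the member Etv4, and Spry2 had the lowest best match, 0.786 with Cdkn2aip.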

How the data were processed

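The authors sequenced RNA from LSK cells and CD11b+ cells of mice as 100 bp paired-end reads, trimmed it with Trim Galore 0.6.5 and mapped it with STAR 2.5.3a to GRCm38, as their methods and processing notes state. They deposited raw counts per Ensembl gene, 1 table per library, without normalization. The counting program, annotation and use of strand are not given in the sources used here. Here, symbols were found for 45143 of 45706 identifiers. The counts were tested in R 4.3.3 with edgeR 4.0.16 (TMM, filterByExpr with a minimum count of 10, robust quasi-likelihood fit of all 21 libraries over 9 groups, 12 residual degrees of freedom), with Benjamini-Hochberg adjustment over 19555 genes at a threshold of 0.05 and 17 comparisons. Depth was 34992610 to 104509425 counts per library. Standard errors come from the estimate and its F statistic, and log2 CPM uses a prior count of 2.

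The rule for names took the 10 members and, of the pathway lists, called genes by size of change, up to 5 a direction. Between fractions the text names the called members and gives the others as counts, and some listed genes are given as counts only or not reported here. Genes called in the LSK groups fitted alone were named after their values were seen. The members and lists were chosen with earlier results of these data known. The methods speak of 3 mice per genotype and the labels give 2 MxCre libraries per fraction. The labels do not tie the control libraries to separate animals, so p-values measure the spread between these libraries. Alternatives were DESeq2 1.42.0, other scalings and filters, only the groups compared, other controls, a replicate block and each library left out. The edgeR steps were tested on simulated counts with the same spread in every gene and group. That test cannot show how the fit does where the spread differs between fractions.

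Libraries with the same number were checked for shared deviations from their group means. Between fractions the correlations ran from -0.173 to 0.407, and not every pair passed 0.1, so a pairing of the control libraries by number was not shown. The check cannot exclude one, since LSK and BM libraries of S3 animals 540 and 815, paired by their labels, gave 0.072 and -0.096. S3 libraries of an animal are paired by their labels, although the Xist and Y counts of animal 540 differ between fractions.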

Additional observations from a re-analysis of the deposited data

How the results depend on the processing

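Of 41 log2 fold changes of members followed through 553 alternatives, 0 reversed. Counts of members called moved more, and the cause was not tested. With only the groups compared in the fit, calls became 7 (from 0) for LSK S3 against MxCre, 3 (from 0) for LSK S3 against Ptpn11D61Y/+, 2 (from 0) for the LSK controls, 1 (from 3) for spleen S3 against MxCre, 8 (from 4) and 2 (from 4) for spleen and BM against LSK cells of S3 mice, and 0 (from 1) for spleen against BM controls. All genes called in these fits were, in the same order, 4541 (from 6), 5165 (from 19), 2608 (from 12), 14 (from 819), 5393 (from 5349), 3454 (from 5301) and 751 (from 1949). DESeq2 called 1 in LSK S3 against MxCre, 1 in LSK, BM and spleen S3 against Ptpn11D61Y/+, 2 in BM S3 against MxCre, 1 in the BM controls and 1 in S3 spleen against BM. With both controls together spleen S3 had 0 calls, among members and among all genes. With Ptpn11D61Y/+ libraries only as controls, spleen against LSK had 3 (3542 of all genes), BM against LSK 4 (3844) and spleen against BM 2 (722), and with MxCre only the last had 0 (179).

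With the 2 control groups alone in the fit, adding the replicate number as a block gave 2 calls for LSK controls (2 without the block), 5 for spleen controls (3 without it) and 0 for BM controls (0 without it). With the replicate block as the animal, spleen against LSK of S3 mice had 6 (adding Dusp4 and Spred2) and BM against LSK had 5, and it changed no other count of calls. S3 libraries share no number with controls, so no block was possible there.

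Leaving out 1 library at a time gave these ranges of member calls, with those of all genes in parentheses: BM S3 against MxCre 0 to 2 (0 to 1983), spleen S3 against MxCre 1 to 3 (266 to 860), BM controls 0 to 3 (0 to 2893), spleen controls 0 to 2 (0 to 647), S3 spleen against LSK 2 to 4 (3005 to 6669), S3 BM against LSK 1 to 8 (2932 to 7164), S3 spleen against BM 0 to 2 (0 to 460), control spleen against LSK 3 to 5 (8011 to 9641), control BM against LSK 5 to 8 (6923 to 9350) and control spleen against BM 0 to 2 (681 to 3236). The member count stayed at 0 for the LSK comparisons between genotypes, for S3 against Ptpn11D61Y/+ and for both differences between fractions. The 1 and 8 of S3 BM against LSK arose without BM S3 815 or LSK S3 768, and without BM S3 640. The 0 of the spleen controls arose without Ptpn11D61Y/+ 1. A library left alone in its group was taken to vary like the other groups. That was so for BM MxCre 1 without MxCre 2, also in the fit without the 3 libraries with Xist and Y counts.

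Alternatives added after seeing the data left out BM S3 640 with BM MxCre 1, which gave 8 calls for S3 BM against LSK (8491 of all genes), 3 for S3 spleen against BM (1578) and 2 for control spleen against BM (4080). Leaving out the 3 libraries with Xist and Y counts gave 1 in BM S3 against MxCre (1120 of all genes), 1 in the BM controls (2478) and 0 for control spleen against BM (927).

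Scaling by library size alone moved the median of all genes by up to -0.96 (log2, control BM against LSK), by 0.64 in the spleen controls and by 0.45 in spleen S3 against MxCre, where 72.1% of all calls were then higher, against 36.1%, and 83.7% in the spleen controls, against 41%. Member calls higher and lower then became 2 and 7 (from 3 and 5) for control BM against LSK, 1 and 2 (from 3 and 1) for S3 BM against LSK, 2 and 4 (from 2 and 2) for S3 spleen against LSK, 2 and 4 (from 2 and 3) for control spleen against LSK and 1 and 1 (from 1 and 2) for spleen S3 against MxCre. Of all calls against LSK cells, the share that were higher became 18.1% (from 45.8%) for control BM and 23.5% (from 46.7%) for control spleen. For S3 BM it became 26.2% (from 53.3%) and for S3 spleen 29.3% (from 57.8%).

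Depth limits Etv4 most, with 9 counts or fewer in every CD11b+ control library.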
